A study of Mus musculus with 6 samples.

Results

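The exocyst is a tethering complex, which holds a secretory vesicle at the plasma membrane before SNARE proteins fuse the membranes. Its transcripts were examined in human cells with and without induction of the splicing regulator Rbfox1. The members were chosen by gene symbol as EXOC1, EXOC2, EXOC3, EXOC4, EXOC5, EXOC6, EXOC6B, EXOC7 and EXOC8, which were 9 of the 58870 genes in the files and held 94 of the 208621 isoforms. EXOC6 and EXOC6B are paralogs that provide alternative versions of the same subunit. EXOC1 to EXOC4 form 1 module of the complex, and EXOC5 to EXOC8 form the other.

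RNA-seq had been performed on 77-5 cells, a single clone of T-REx-293 with an integrated minigene of mouse Ntrk2, the gene of the receptor TrkB, in a bacterial artificial chromosome. T-REx-293 cells are HEK293 cells, of human embryonic kidney, to which the tetracycline repressor was added. The Dox samples (n = 3) were treated for 48 h with doxycycline, which switches on an Rbfox1 gene placed behind a repressed promoter, and carry the label Rbfox1 expression. The No Dox samples (n = 3) are the same clone without treatment and carry the label control. Both groups therefore share the clone, the tetracycline system, the inducible Rbfox1 gene and the minigene. The labels give the dose as 0.5 mg/ml, whereas legends of the study use micrograms per ml. The labels name mouse as the organism, and the transcripts in the files are human. No source used here says whether the 3 samples of a group came from separate cultures, so p-values measure the spread between these samples, which may be technical. Effects of doxycycline itself and of Rbfox1 cannot be told apart in this design.

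Exocyst function is best known in polarized secretion. Small GTPases such as those of the Ral and Rab families recruit or assemble it, EXOC1 and EXOC7 bind phosphoinositides of the plasma membrane, and the complex has roles in epithelial polarity, primary cilia, cytokinesis and neurite growth. In epithelial cells EXOC7 is spliced differently from mesenchymal cells, a choice that the ESRP proteins are known to regulate. Rbfox1 binds GCATG elements in pre-mRNA and regulates the inclusion of exons. The study reports that clusters of such elements deep in introns can act on distant exons.

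The libraries were of similar depth, with total expected counts of 59822964 to 65774104 in Dox samples and 62344973 to 65758236 in No Dox samples. The biological coefficient of variation across genes was 2.87%, so that small differences could pass the gene test. RBFOX1 averaged 188.3 ± 1.77 TPM in Dox and 7.53 ± 0.79 TPM in No Dox (SD, n = 3 each). This was a log2 fold change of 4.55 ± 0.06 (SE; edgeR, adjusted p = 7.6e-18), over the endogenous gene and the construct together. Markers of HEK293 cells (KRT8, KRT18, VIM, CDH2, NEFM and PAX2) summed to 993.0 to 1030 TPM in Dox and 1099 to 1112 TPM in No Dox. VIM was the largest part, at 665.6 TPM in Dox and 691.9 TPM in No Dox. By edgeR KRT8, KRT18 and VIM fell, CDH2 and the weakly expressed NEFM rose, and PAX2 did not pass. Markers of differentiated kidney tubule and podocytes summed to 3.15 to 3.96 TPM in Dox and 6.95 to 7.03 TPM in No Dox, nearly all of it LRP2. Markers of other cell types summed to 5.37 to 5.52 TPM in Dox and 4.47 to 5.64 TPM in No Dox, most of it COL1A1.

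All 9 exocyst genes were detected, and their transcripts changed by small amounts. EXOC4 rose most, by 1.30-fold, followed by EXOC6B (1.24-fold), EXOC1 (1.14-fold), EXOC5 (1.13-fold) and EXOC7 (1.05-fold). EXOC6 fell to 0.899 of its No Dox level. EXOC2, EXOC3 and EXOC8 did not pass the test. Thus 5 of 9 genes rose, 1 fell and 3 did not pass, by edgeR's quasi-likelihood test with Benjamini-Hochberg adjustment at 0.05. Over all 18264 genes tested, 51.4% passed, with 24.9% higher and 26.5% lower in Dox, and the 66.7% of members that passed is read against that share. The median log2 fold change was 0.07 over the members and 0.0045 over all genes tested. Without TMM scaling all log2 fold changes were 0.05 higher, and 51.7% of genes passed, with 31.1% higher and 20.5% lower in Dox. The exocyst counts of 5 and 1 were the same under that scaling. The groups did not overlap in normalised counts (CPM, with TMM) for 6 of the 9 genes, against 58.2% of all genes tested, nor in TPM for 5 of the 9, against 50.3%. The 5 in TPM included EXOC8, which overlapped in CPM. In bulk RNA a change in some of the cells and a smaller change in all of them cannot be told apart.

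**Figure D1:**
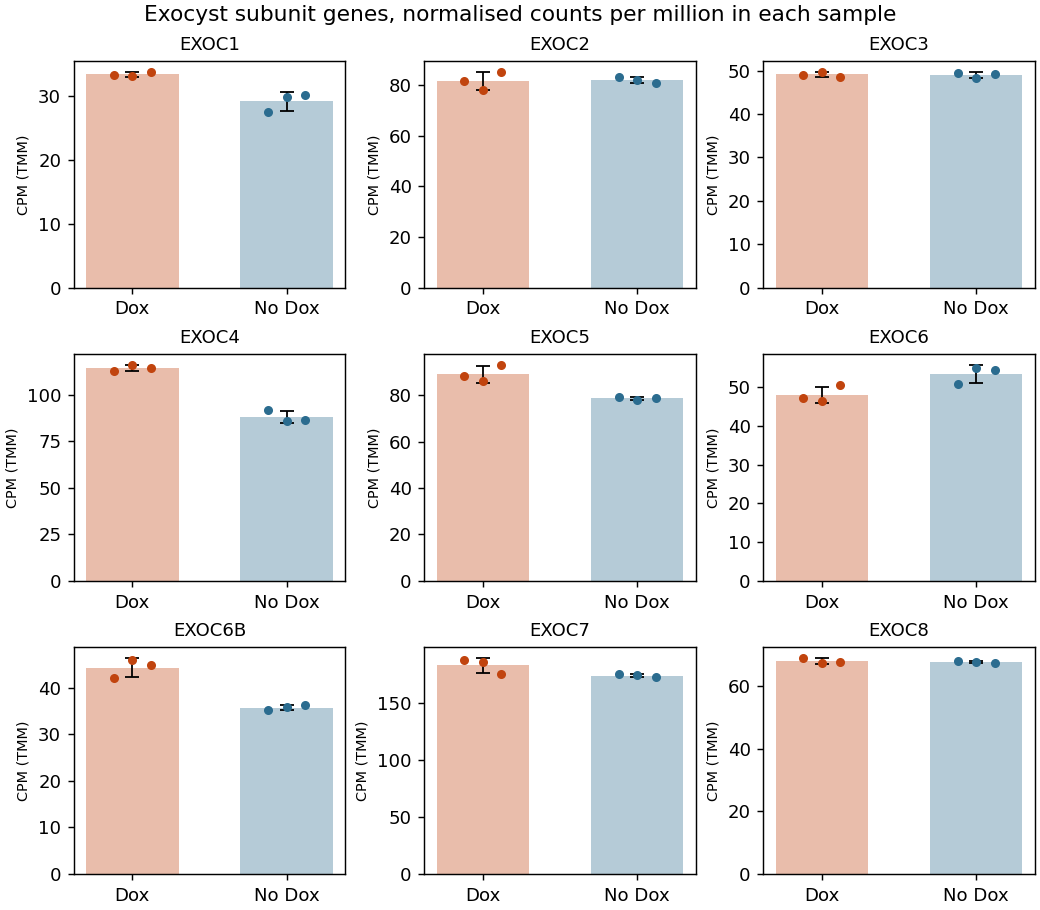
Normalised counts (CPM, with TMM) of the 9 exocyst genes in each sample, Dox left and No Dox right, with bars at the mean, error bars of 1 SD and a point per sample (n = 3 each). The groups stand apart in EXOC1, EXOC4, EXOC5, EXOC6, EXOC6B and EXOC7, narrowly in the last, and overlap in EXOC2, EXOC3 and EXOC8.

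EXOC1 (Sec3 in yeast), which binds membrane lipids and marks sites of docking, had 33.3, 33.1 and 33.8 CPM in Dox samples against 27.4, 29.9 and 30.2 CPM in No Dox samples. Every Dox sample lay above every No Dox sample. The log2 fold change was 0.19 ± 0.04 (SE; edgeR, adjusted p = 0.00073).

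EXOC2 (Sec5), an effector of the Ral GTPases, had 81.6, 78.0 and 85.1 CPM in Dox samples and 82.9, 81.8 and 80.6 CPM in No Dox samples. The groups overlapped, with the highest and the lowest values both in Dox. The fold was 0.998, with a 95% interval of 0.950 to 1.05 and an adjusted p of 0.94, and the sign of its log2 fold change was positive without TMM scaling. EXOC3 (Sec6), which binds SNARE proteins in yeast, had 49.0, 49.7 and 48.6 CPM in Dox and 49.5, 48.2 and 49.2 CPM in No Dox. Its samples were interleaved. The fold was 1.00, with an interval of 0.958 to 1.05 and an adjusted p of 0.94. Both intervals end below that of EXOC4, given next.

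EXOC4 (Sec8), a core scaffold of the same module, had 113, 116 and 115 CPM in Dox samples and 92.1, 86.1 and 86.5 CPM in No Dox samples. The gap between the groups was several times the spread within either. The log2 fold change, 0.37 ± 0.03 (SE), had an adjusted p of 5.2e-08 by edgeR, and a 95% interval of 1.24 to 1.36 as a fold.

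EXOC5 (Sec10), which is required for primary cilia in kidney epithelia, had 88.1, 85.9 and 93.0 CPM in Dox samples and 79.2, 78.1 and 78.8 CPM in No Dox samples. All Dox samples were higher, with more spread among them than among the No Dox samples. The log2 fold change was 0.18 ± 0.03 (SE), with an adjusted p of 0.00021. With limma on log2(TPM + 1) the change of EXOC5 was 0.29 and that of EXOC1 0.21. The order of EXOC1 and EXOC5 by change thus depended on the scale.

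The paralogs EXOC6 and EXOC6B (Sec15), which are effectors of Rab GTPases on recycling vesicles, moved in opposite directions. EXOC6 had 47.3, 46.4 and 50.5 CPM in Dox samples and 50.9, 55.1 and 54.6 CPM in No Dox samples. The highest Dox sample lay just under the lowest No Dox sample. The log2 fold change was -0.15 ± 0.04 (SE), with an adjusted p of 0.0039. This call was made on counts and was lost on TPM, where the adjusted p was 0.34 with a pseudocount of 1 and 0.15 over isoforms of 1000 bases or more. EXOC6B had 42.0, 46.0 and 44.8 CPM in Dox samples and 35.1, 35.8 and 36.2 CPM in No Dox samples. Here the groups were well apart, and the log2 fold change was 0.31 ± 0.04 (SE), with an adjusted p of 4.6e-06. Per length, over isoforms of 1000 bases or more, EXOC6B made up 34.2%, 36.5% and 33.9% of the summed TPM of the pair in Dox samples and 28.9%, 27.4% and 28.3% in No Dox samples. EXOC6 thus remained the more abundant paralog in all 6 samples, by a smaller margin in Dox.

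EXOC7 (Exo70), which binds phosphoinositides, was the most abundant member on every scale. It had 188, 186 and 176 CPM in Dox samples and 176, 175 and 173 CPM in No Dox samples. The lowest Dox sample (175.6 CPM) and the highest No Dox sample (175.6 CPM) were almost equal. The log2 fold change was 0.07 ± 0.03 (SE) with an adjusted p of 0.045, and the call did not last: the adjusted p was 0.061 by DESeq2, and leaving out any sample other than Dox replicate 3 lost it, with adjusted p-values of 0.083 to 0.17.

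EXOC8 (Exo84), the other Ral effector, had 69.0, 67.3 and 67.7 CPM in Dox samples and 68.1, 67.7 and 67.4 CPM in No Dox samples. In CPM the groups overlapped within a range smaller than that of any other member relative to its level. In TPM they did not overlap, at 20.58, 19.92 and 20.13 in Dox samples and 19.63, 19.65 and 19.62 in No Dox samples. The fold was 1.00, with an interval of 0.963 to 1.05 and an adjusted p of 0.87. The pair of Ral-binding subunits, EXOC2 and EXOC8, therefore both stayed outside the calls.

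**Figure D2:**
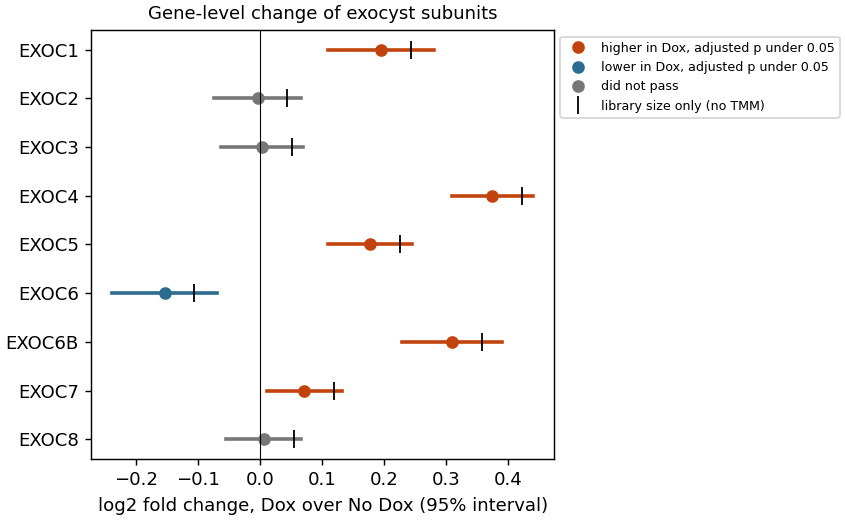
Log2 fold change of each exocyst gene, Dox over No Dox, from edgeR (points) with its 95% interval (lines), coloured by the call, and the value without TMM scaling (vertical ticks). EXOC4 and EXOC6B lie farthest to the right at 0.37 and 0.31, EXOC6 lies to the left at -0.15, and the ticks sit about 0.05 to the right of each point.

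Levels of different genes were compared per length, as TPM. The order by mean was the same in both groups, with EXOC7 highest and EXOC6B lowest. In Dox, EXOC7 averaged 79.0 ± 2.77 TPM, EXOC4 43.7 ± 0.78, EXOC5 39.0 ± 2.15, EXOC3 31.2 ± 0.84, EXOC2 28.9 ± 1.46, EXOC6 23.8 ± 0.54, EXOC8 20.2 ± 0.34, EXOC1 15.9 ± 0.42 and EXOC6B 11.7 ± 0.69 TPM (SD, n = 3). Each of these lay above the next in every Dox sample. In No Dox, EXOC7 averaged 75.7 ± 1.10 TPM, EXOC4 34.1 ± 1.40, EXOC5 31.7 ± 1.62, EXOC3 30.4 ± 0.80, EXOC2 29.2 ± 0.23, EXOC6 27.6 ± 6.45, EXOC8 19.6 ± 0.015, EXOC1 13.7 ± 0.31 and EXOC6B 9.18 ± 0.33 TPM (SD, n = 3). In No Dox the neighbours EXOC4 and EXOC5, EXOC5 and EXOC3, and EXOC2 and EXOC6 overlapped and could not be ordered beyond their spread. Over isoforms of 1000 bases or more, EXOC2 moved ahead of EXOC3 in both groups, and in No Dox also ahead of EXOC5, so that the order was then not the same in both. The summed level of the 9 genes was 294.1, 292.5 and 293.8 TPM in Dox samples and 269.6, 277.7 and 266.0 TPM in No Dox samples. All Dox samples were higher, and EXOC7 was the largest part of the sum in both groups.

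The wide spread of EXOC6 in No Dox was that of 1 short isoform. Over isoforms of 1000 bases or more EXOC6 averaged 21.1 ± 1.06 TPM in Dox and 22.8 ± 1.00 TPM in No Dox, and the groups overlapped. EXOC6-205, which is 216 bases long, was assigned 8.5, 5.43 and 2.94 expected counts in Dox samples and 0, 24.0 and 5.07 expected counts in No Dox samples. Scaled to length these few counts became 3.6, 2.47 and 1.2 TPM in Dox samples and 0, 10.4 and 2.15 TPM in No Dox samples. In No Dox replicate 2 this isoform raised EXOC6 to 34.8 TPM, whereas its summed counts were in the range of the other samples. EXOC7-218, of 353 bases, likewise held 17.1% of EXOC7 by isoform percentage in both groups with 0.884% of its counts in Dox and 0.919% in No Dox.

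**Figure D3:**
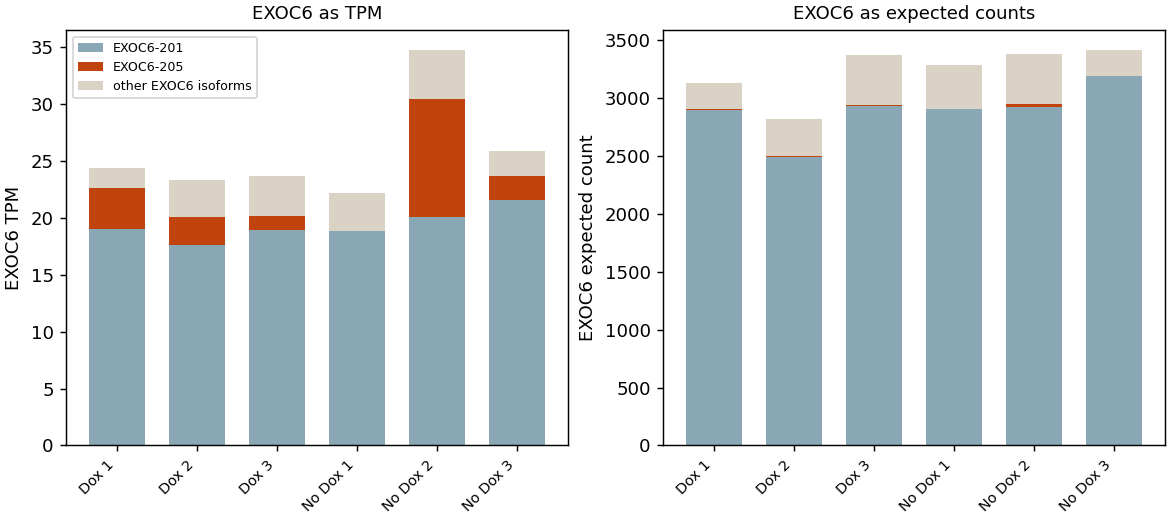
EXOC6 in each sample in TPM (left panel) and in expected counts (right panel), stacked by isoform, with Dox samples before No Dox samples. The short isoform EXOC6-205 takes 10.4 TPM of No Dox replicate 2 from 24.0 expected counts, which are barely visible in the right panel.

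Of the 94 isoforms of exocyst genes, 43 passed the filter on low counts and were tested, 51 were not, and 19 had a count of 0 in all samples. None of the 51 exceeded 38.0 expected counts in any sample. Because RSEM apportions reads that fit several isoforms, each isoform value is a model estimate. By limma-voom, 5 isoforms rose and 1 fell, which is 14.0% of those tested, against 12.6% of all isoforms tested (6.19% higher and 6.44% lower in Dox). The share of called isoforms was thus near the background. The isoforms that passed were EXOC1-202, EXOC4-201, EXOC5-206, EXOC6B-201, EXOC7-216 and, falling, EXOC7-221.

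Isoform usage, which asks whether an isoform changed differently from the rest of its gene, could be tested for all members but EXOC8, for which the files list 1 isoform. Of these 8 genes 5 passed by diffSplice, namely EXOC7, EXOC1, EXOC4, EXOC6B and EXOC3, against 27.5% of all 12328 genes tested. The diffSplice test was found on simulated data to give more false calls than its threshold states. By diffSpliceDGE, which passed 10% of genes, only EXOC7 was called. Usage changes of at least 10 points were seen in EXOC1 and EXOC7 alone, and in the other members the largest change in isoform percentage was 1.79 to 7.08 points.

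EXOC1 showed the largest change in usage. EXOC1-202, of 3248 bases, made up 50.5%, 55.8% and 56.8% of EXOC1 in Dox samples and 34.3%, 36.5% and 37.3% in No Dox samples. EXOC1-203, of 3592 bases, made up 36.1%, 38.5% and 35.1% in Dox samples and 44.5%, 48.1% and 49.7% in No Dox samples. The order of these main isoforms was therefore reversed, with EXOC1-202 first in every Dox sample and EXOC1-203 first in every No Dox sample. EXOC1-201, of 3357 bases, made up 4.91%, 1.63% and 3.08% in Dox samples and 8.06%, 8.36% and 6.07% in No Dox samples. The groups did not overlap for any of these isoforms, against 24.8% of all isoforms tested. The changes were 18.3, -10.8 and -4.29 points, with adjusted p-values of 7.5e-06, 0.0026 and 0.001 in the usage test. A largest change of 18.3 points or more was found in 6.36% of the genes in that test, whose median was 4.78 points. For the gene the adjusted p was 7.6e-06, but 0.097 by diffSpliceDGE.

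As abundance, EXOC1-202 had 8.20, 8.61 and 9.09 TPM in Dox samples and 4.57, 5.02 and 5.19 TPM in No Dox samples. Its log2 fold change was 0.80 ± 0.08 (SE), with an adjusted p of 0.0014 by limma-voom, the largest rise among the isoforms called. EXOC1-203 did not pass, with 5.87, 5.95 and 5.62 TPM in Dox samples, 5.92, 6.60 and 6.92 TPM in No Dox samples and an adjusted p of 0.22. EXOC1-201 did not pass either (adjusted p = 0.11). The exon content of these isoforms was not examined here.

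In EXOC7, EXOC7-216 (4782 bases) and EXOC7-201 (4596 bases) were the main isoforms. EXOC7-216 made up 40.7%, 43.8% and 44.7% of the gene in Dox samples and 30.1%, 32.8% and 32.1% in No Dox samples, a change of 11.4 points. EXOC7-201 made up 26.8%, 19.8% and 20.8% in Dox samples and 31.8%, 29.8% and 30.6% in No Dox samples, a change of -8.24 points. EXOC7-216 stood clearly above EXOC7-201 in each Dox sample, whereas in No Dox samples they were nearly equal and EXOC7-201 was the higher in replicate 1. The adjusted p-values in the usage test were 1.4e-09 for EXOC7-216 and 7.3e-08 for EXOC7-201. For the gene the adjusted p was 3.7e-09 by diffSplice and 0.0016 by diffSpliceDGE. A largest change of 11.4 points or more was found in 16.1% of the genes in the test. By share of expected counts, which gives less weight to the short EXOC7-218, the changes were 14.2 and -12.0 points.

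**Figure D4:**
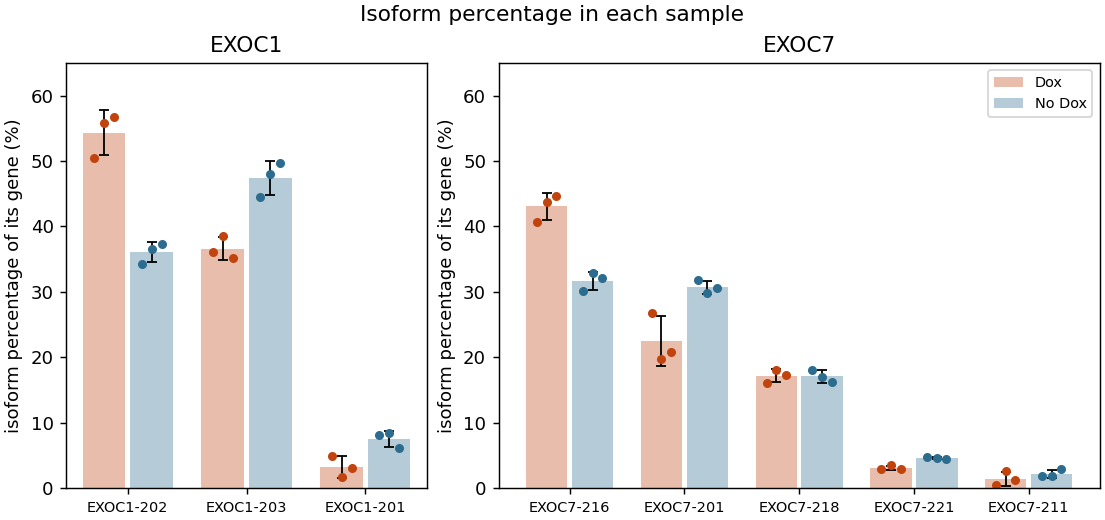
Isoform percentage of the named isoforms of EXOC1 (left panel) and EXOC7 (right panel) in each sample, Dox left and No Dox right of each pair, with bars at the mean, error bars of 1 SD and a point per sample (n = 3 each). EXOC1-202 and EXOC7-216 are higher in all Dox samples, EXOC1-203 and EXOC7-201 are lower, and EXOC7-218 is at 17.1% in both groups.

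EXOC7-216 had 32.6, 35.6 and 34.0 TPM in Dox samples and 23.0, 25.0 and 23.9 TPM in No Dox samples. Its log2 fold change was 0.49 ± 0.05 (SE), with an adjusted p of 0.0013 by limma-voom. EXOC7-201 had 21.4, 16.1 and 15.8 TPM in Dox samples and 24.3, 22.7 and 22.7 TPM in No Dox samples. All Dox samples were lower, with Dox replicate 1 close to the No Dox samples, and the log2 fold change was -0.41 ± 0.11 (SE) with an adjusted p of 0.059. It passed by DESeq2 (adjusted p = 0.0023), and by limma-voom without Dox replicate 1, with a log2 fold change of -0.55 and an adjusted p of 0.0047. By edgeR the adjusted p was 0.088. EXOC7-221, a minor isoform of 2124 bases, fell to 2.32, 2.81 and 2.22 TPM in Dox samples, against 3.66, 3.51 and 3.30 TPM in No Dox samples. Its log2 fold change was -0.53 ± 0.13 (SE), and its adjusted p of 0.043 became 0.056 by edgeR and 0.084 to 0.13 when any sample but Dox replicate 2 was left out. EXOC7-211, of 3336 bases, also passed in the usage test (adjusted p = 0.044), though its isoform percentage of 0.45%, 2.54% and 1.26% in Dox samples overlapped 1.83%, 1.79% and 2.89% in No Dox samples.

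Levels of the epithelial splicing regulators are given beside EXOC7. ESRP2, which regulates epithelial exons, averaged 25.1 ± 0.14 TPM in Dox and 35.2 ± 0.85 TPM in No Dox (SD, n = 3 each), with a log2 fold change of -0.51 ± 0.04 (SE) and an adjusted p of 6.4e-09 by edgeR. ESRP1 was near the limit of detection, at 0.27 ± 0.06 TPM in Dox and 0.18 ± 0.05 TPM in No Dox, and differed the other way, with a log2 fold change of 0.87 and an adjusted p of 0.015 by edgeR but 0.091 by DESeq2. The epithelial adhesion gene EPCAM averaged 88.1 ± 5.39 TPM in Dox and 95.3 ± 0.36 TPM in No Dox and fell by 0.15 on the log2 scale (adjusted p = 0.00053), while CDH1 averaged 1.26 ± 0.17 TPM in Dox and 1.25 ± 0.06 TPM in No Dox and did not pass (adjusted p = 0.18). The exon content of the EXOC7 isoforms was not examined here, and the part of these genes in the change of EXOC7 isoforms was not tested.

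EXOC4 was expressed almost wholly as EXOC4-201, of 4182 bases. This isoform had 41.0, 41.9 and 41.5 TPM in Dox samples and 32.2, 30.3 and 30.5 TPM in No Dox samples, and rose by 0.41 ± 0.03 (SE) on the log2 scale, for which the adjusted p was 0.00071. Its isoform percentage was 95.7%, 94.5% and 94.3% in Dox samples and 90.2%, 91.8% and 90.5% in No Dox samples. EXOC4-215, a short isoform of 568 bases, made up 2.56%, 2.38% and 2.31% in Dox samples and 6.34%, 5.82% and 5.80% in No Dox samples. The gene passed the usage test with an adjusted p of 0.0017, but 0.93 by diffSpliceDGE. By share of expected counts the change of EXOC4-201 was 0.69 points in place of 4.06, and that of EXOC4-215 was -0.39 points in place of -3.57. Of the 24 isoforms of EXOC4 in the files, 11 had no count in any sample.

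EXOC6B-201, of 5918 bases, held most of EXOC6B. It had 10.4, 11.3 and 11.0 TPM in Dox samples and 8.29, 8.52 and 8.51 TPM in No Dox samples. All Dox samples were higher, and the log2 fold change was 0.36 ± 0.05 (SE) with an adjusted p of 0.0047. The usage call of the gene (adjusted p = 0.03) was lost without any of the Dox replicates or No Dox replicate 3, with adjusted p-values of 0.13 to 0.19.

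EXOC5 was the member with the most evenly divided isoforms. EXOC5-206 (2349 bases), EXOC5-203 (3661 bases), EXOC5-201 (2632 bases) and EXOC5-207 (594 bases) averaged 25.1%, 22.2%, 18.4% and 15.8% of the gene in Dox and 22.1%, 23.4%, 19.6% and 14.2% in No Dox. EXOC5-202 (8513 bases) averaged 9.45% in Dox and 10.1% in No Dox. By share of expected counts the short EXOC5-207 held only 1.96% in Dox and 1.67% in No Dox. EXOC5-202 then held 23.6% and 23.7%, and EXOC5-211 (10486 bases) 21.1% and 24.2%. By either share EXOC5-211 was lower in every Dox sample, but its usage did not pass (diffSplice, adjusted p = 0.21). EXOC5-206 had 8.88, 10.0 and 10.5 TPM in Dox samples and 7.83, 6.90 and 6.34 TPM in No Dox samples, with a log2 fold change of 0.47 ± 0.11 (SE) and an adjusted p of 0.039. That call was lost without Dox replicate 2 or 3 or No Dox replicate 2 or 3, with adjusted p-values of 0.11 to 0.12. EXOC5-203 had 8.67, 8.74 and 8.52 TPM in Dox samples and 6.93, 7.5 and 7.74 TPM in No Dox samples and missed the threshold (adjusted p = 0.057), though it passed by edgeR (0.049) and by DESeq2 (0.0039). The usage of EXOC5 isoforms did not pass (adjusted p = 0.25).

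In EXOC3, EXOC3-201 (2682 bases) made up 50.8%, 58.5% and 44.1% in Dox samples and 50.1%, 56.4% and 51.6% in No Dox samples. EXOC3-209 (2801 bases) made up 20.0%, 18.4% and 33.2% in Dox samples and 17.7%, 12.7% and 19.9% in No Dox samples. Both overlapped between the groups, and Dox replicate 3 stood apart with the least EXOC3-201 and the most EXOC3-209. The usage test gave an adjusted p of 0.04 for the gene, which was lost without each No Dox replicate, with values of 0.069 to 0.30. EXOC2-201 (4456 bases) held 93.8%, 97.2% and 96.8% of EXOC2 in Dox samples and 94.5%, 93.1% and 90.7% in No Dox samples, and no isoform of EXOC2 passed. EXOC6-201 (3564 bases) had 19.0, 17.7 and 19.0 TPM in Dox samples and 18.9, 20.1 and 21.6 TPM in No Dox samples, and its log2 fold change of -0.13 ± 0.06 (SE) did not pass (adjusted p = 0.20). The usage of EXOC2 (adjusted p = 0.22) and EXOC6 (adjusted p = 0.80) did not pass.

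The 3 genes whose pattern over the 6 samples was most like that of EXOC4 were ANKRD29, MAP1LC3B and NNT, among 11419 genes compared. Their distances in centred log2 CPM were 0.033, 0.040 and 0.040. EXOC4 was used as the member with the largest change. The log2 fold changes of these genes were 0.38, 0.38 and 0.39, against 0.37 for EXOC4. A small distance requires a like difference between the groups, and shared regulation was not tested.

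Genes that work with the exocyst or in other tethering complexes were counted in the same fit. Over the lists of partners and tethers 13 genes rose and 20 fell. Without TMM scaling these counts were 16 and 14. Over all genes tested, 24.9% were higher and 26.5% lower in Dox, or 31.1% and 20.5% without TMM scaling. The counts of each list below are read against those shares. Of the genes named below, only TNFAIP2, which did not pass, changed its sign with the scaling, whereas the medians of the GTPases and of the Ral and RAB8 regulators, both just under 0, became positive.

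Among the GTPases that bind the exocyst, 3 of 10 rose, 3 fell and 4 did not pass, with a median log2 fold change of -0.0093. RAB10, which acts in basolateral and GLUT4 vesicle traffic, averaged 65.4 ± 0.74 TPM in Dox and 54.9 ± 1.46 TPM in No Dox (log2 fold change 0.30). The Ral GTPases changed in opposite directions. RALB averaged 18.8 ± 0.36 TPM in Dox and 15.6 ± 0.42 TPM in No Dox (0.23 on the log2 scale), and RALA averaged 24.0 ± 1.41 TPM in Dox and 27.3 ± 0.72 TPM in No Dox (-0.18). RAB8B, a paralog of RAB8A in vesicle traffic to cilia and junctions, rose by 0.15 on the log2 scale. The more abundant RAB8A fell (-0.085, edgeR adjusted p = 0.018), at 57.2 ± 1.08 TPM in Dox and 60.0 ± 0.56 TPM in No Dox.

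Of 12 tested regulators of Ral and RAB8, 4 rose, 5 fell and 3 did not pass, and the median was -0.028. The exchange factor for Ral RGL1 averaged 3.48 ± 0.17 TPM in Dox and 2.48 ± 0.10 TPM in No Dox (0.46 on the log2 scale). RALGPS1, another Ral exchange factor, and RAB3IP, the exchange factor for RAB8 also known as Rabin8, each rose by 0.24. Other Ral exchange factors did not rise. RALGDS, at 27.6 TPM in Dox and 32.9 TPM in No Dox (-0.19), and RGL2, at 15.4 and 16.6 TPM (-0.21), fell, and RALGPS2 did not pass. TBC1D30, a GTPase-activating protein for RAB8, averaged 11.6 ± 0.43 TPM in Dox and 14.5 ± 1.17 TPM in No Dox (-0.23). RAB3IL1, also in this list, fell (-0.20), with an adjusted p of 0.045 by edgeR but 0.15 by DESeq2. Among the SNAREs and their partners, 1 of 7 rose, 3 fell and 3 did not pass, with a median of -0.067. VAMP2, a vesicle SNARE, averaged 41.1 ± 1.73 TPM in Dox and 30.1 ± 0.44 TPM in No Dox (0.44). The plasma membrane SNAREs SNAP23, at 45.3 ± 0.95 TPM in Dox and 57.9 ± 1.68 TPM in No Dox (-0.35), and STX4, at 47.3 ± 2.75 TPM in Dox and 54.3 ± 1.60 TPM in No Dox (-0.25), fell, as did the STX4 partner STXBP3 (-0.13).

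The other tethers differed in their counts. In the COG complex of the Golgi, 1 of 8 rose, 0 fell and 7 did not pass, with a median of 0.012. COG3 was the gene that rose on counts (0.15), yet its level per length was lower, at 11.9 ± 0.76 TPM in Dox and 15.3 ± 1.35 TPM in No Dox. In the GARP, EARP and NRZ tethers of endosomes and the endoplasmic reticulum, 1 of 8 rose, 4 fell and 3 did not pass, with a median of -0.11. VPS50, the subunit particular to EARP, rose by 0.26, while VPS53 (-0.28), VPS51 (-0.22) and NBAS (-0.17) fell. In the HOPS and CORVET tethers of late and early endosomes, 3 of 8 rose and 5 fell, with a median of -0.13. VPS8, which is specific to CORVET, rose by 0.35, and the shared core subunits VPS33A (-0.28), VPS18 (-0.25) and VPS11 (-0.18) fell. Of the remaining subunits, VPS41 (0.13) and VPS39 (0.081) rose, and TGFBRAP1 (-0.16) and VPS16 (-0.10) fell. Of 4 paralogs of EXOC3, only TNFAIP2 was tested, and it did not pass (adjusted p = 0.97), at 0.51 ± 0.26 TPM in Dox and 0.46 ± 0.15 TPM in No Dox.

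**Figure D5:**
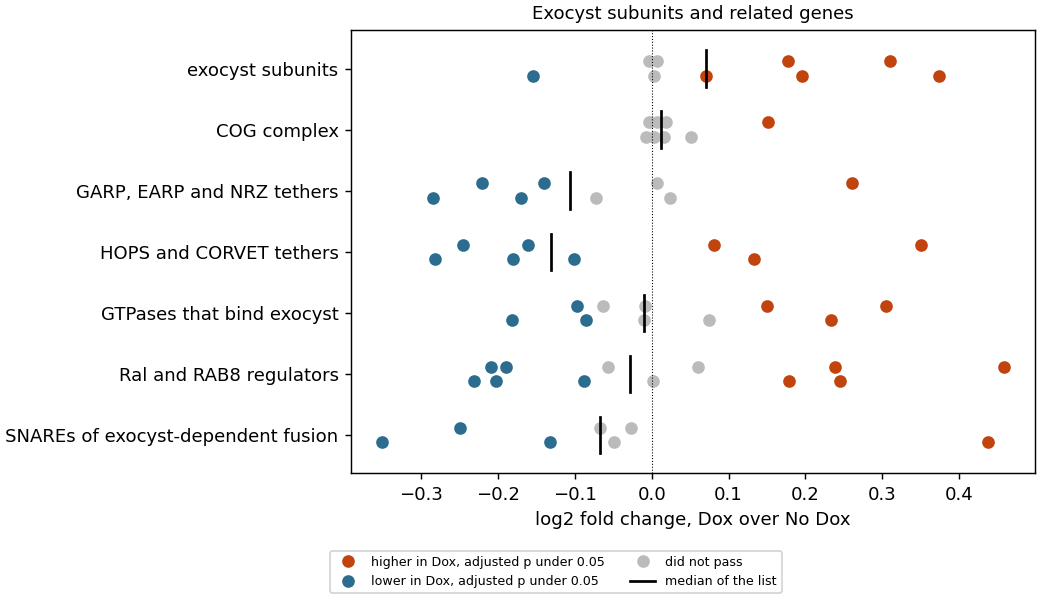
Log2 fold change, Dox over No Dox, of each tested gene (points) in the exocyst and in lists of other tethers and of exocyst partners, coloured by the call, with the median of each list (vertical lines). The median is 0.07 in the exocyst, 0.012 in COG and below 0 in the other lists, down to -0.13 in HOPS and CORVET, though without TMM scaling the medians of the GTPases and of the Ral and RAB8 regulators became positive.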

How the data were processed

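RNA-seq of 6 samples was analysed. Per the labels and the methods, libraries were of stranded mRNA, and the authors used cutadapt for trimming, STAR for mapping to GRCh38 and RSEM for quantification, in versions not given in the sources used here. Deposited by the authors were expected counts per isoform (estimated, not normalized), TPM values scaled for effective length and sample total, and the isoform percentage, an isoform's percent of the abundance of its gene. Such estimates can move reads between isoforms with common exons, and between a gene and its paralogs, pseudogenes or antisense partner.

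Expected counts were summed per gene, rounded and tested with edgeR 4.0.16 (TMM, filterByExpr, quasi-likelihood). For isoforms limma-voom (limma 3.58.1) was used, and for usage diffSplice and Simes p-values, in R 4.3.3. Tests were two-sided and fitted over all genes or isoforms, with Benjamini-Hochberg adjustment at 0.05. Scripts were tested on simulated data. Lists are described by counts and medians with no set test. The rule named all 9 genes, isoforms that passed a test or held at least 10% of a gene, up to 4 genes a list, and the 3 genes nearest to EXOC4. RALGDS, RGL2 and RALGPS2 were named in addition, beside the other Ral exchange factors. Genes were compared for likeness by the Euclidean distance of their log2 CPM (prior count 2) centred on the 6 samples, among genes with a mean of at least 5 TPM in a group. Members and lists were chosen with earlier results of these data known.

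Alternatives were DESeq2 1.42.0, limma on log2(TPM + 1) and log2(TPM + 0.1), edgeR on isoforms, diffSpliceDGE, no TMM, no filter, a block for the replicate number, and single samples left out. Replicates of a group differed by more than sampling noise, so none was taken as a repeat deposit. Coordinates and sequences are not printed, because no human genome or annotation was used here.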

Additional observations from a re-analysis of the deposited data

How the results depend on the processing

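No called exocyst gene or isoform changed direction under any alternative run. EXOC2, EXOC3 and EXOC8, and the isoforms EXOC2-201, EXOC3-201 and EXOC7-218, none of them called and all near 0, changed sign under some. In the lists, COG3 was called as rising on counts but had a lower TPM in every Dox sample than in any No Dox sample. Among the exocyst genes 1 was lower in Dox, against 0 with limma on log2(TPM + 1), on log2(TPM + 0.1) and on log2(TPM + 1) over isoforms of 1000 bases or more; the last was chosen after seeing the data and called EXOC3 (adjusted p = 0.029). Of isoforms, 1 was lower, against 3 by DESeq2, 0 by edgeR, 0 with no filter on low counts and 0 to 1 without single replicates. Usage was called in 5 genes, against 1 by diffSpliceDGE, 2 with a change of at least 10 points and 3 to 4 without single replicates. With only isoforms of at least 10 percent it was called in 2, EXOC1 and EXOC7. In that setting EXOC2, EXOC4, EXOC6 and EXOC6B could not be tested. Same-numbered samples of the groups correlated by only 0.041, 0.028 and 0.057 in their deviations, so they were taken to share only a number. Each Dox sample nevertheless correlated best with the No Dox sample of its own number. With the replicate block, 5 genes rose and 1 fell, 4 isoforms rose and 1 fell, and usage was called in 5 genes, but EXOC5-206 (adjusted p = 0.097) and EXOC7-221 (0.081) were lost and EXOC7-201 (0.038) was gained. The 51 isoforms of low count were not tested.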

Other observations

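Genes named after exocyst subunits but outside the complex were also in the files. EXOC3-AS1, an antisense gene at EXOC3, averaged 7.88 ± 0.37 TPM in Dox and 8.36 ± 0.18 TPM in No Dox (SD, n = 3 each), with an adjusted p of 0.11 by edgeR. EXOC1L was at 0.72, 0.66 and 0.64 TPM in Dox samples and 0.74, 0.51 and 0.54 TPM in No Dox samples. The pseudogene EXOC5P1 was at 0.05 TPM or less in all samples, and EXOC7P1 was listed at 0 in all 6.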
